A study of Homo sapiens with 4 samples.

Results

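SLC3A2 and its partners were followed through a comparison of ZHX2 binding in cultured DB cells, a human line derived from a diffuse large B-cell lymphoma. The set held SLC3A2, the heavy chain, 6 light chains (SLC7A5, SLC7A6, SLC7A7, SLC7A8, SLC7A10 and SLC7A11) and SLC1A5, a glutamine exchanger that is no light chain. Members were the rows of the deposited peak table that carry one of these 8 gene names, which gave 8 of 8871 listed peaks, at 6 of the 8 genes. SLC3A2 had 3 peaks, SLC7A11, SLC7A5, SLC7A7, SLC7A6 and SLC1A5 had 1 each, and SLC7A8 and SLC7A10 had no listed peak.

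Binding of the transcription factor ZHX2 was mapped by ChIP-seq, in which DNA pulled down with an anti-ZHX2 antibody is sequenced and pile-ups of reads are called as peaks. One arm was DB cells labelled ZHX2_Mut4 (Mut4 below) and the other DB cells labelled ZHX2, and each had 1 ChIP library and 1 input library. The labels give neither the residues changed in Mut4, nor how either protein was introduced, nor whether a culture was a clone, nor whether ZHX2 of the cells themselves, which the antibody would also bind, was present. With 1 ChIP library per arm no spread between cultures could be formed, no test of the conditions was possible, and each difference below is one between 2 libraries. Peaks give no expression, so the B-lymphoma label could not be checked against marker levels.

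SLC3A2 (CD98 heavy chain) is a membrane glycoprotein that carries a light chain to the cell surface through a disulphide bond, and the light chain does the transport. With SLC7A11 (xCT) it exchanges extracellular cystine for glutamate, and the imported cystine feeds glutathione synthesis and so the defence against ferroptosis, a death by lipid peroxidation. With SLC7A5 (LAT1) it imports leucine and other large neutral amino acids in exchange for glutamine, which SLC1A5 (ASCT2) can bring in. The title of the series ties phase separation of ZHX2 to protection from ferroptosis by way of SLC3A2, and the question put to the data is what binding at these genes looked like in Mut4 set against ZHX2.

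Peaks of SLC3A2, SLC7A6 and SLC1A5 overlapped RefSeq promoters of these genes, and the peak given to SLC7A7 covered the promoter of another gene, MRPL52, which encodes a mitochondrial ribosomal protein. These promoters, and that of the first SLC3A2 start beside which its first peak begins, are shown because they place the peaks. Each runs from 250 bases before a transcription start to 50 after it, 5′ to 3′ on the strand of the gene, from RefSeq on GRCh38.p14. Capitals mark matches, on either strand, to CCAAT (the NFY box), TGATGNAA (a response element of ATF4), TGACNNNGC (the core of the antioxidant response element bound by NRF2) and CACGTG (the E-box of MYC). The SLC3A2 promoters lie on the plus strand at chr11:62855859-62856158, chr11:62880646-62880945 and chr11:62881449-62881748, in that order. That of SLC7A6 lies on the plus strand at chr16:68264276-68264575, that of SLC1A5 on the minus strand at chr19:46787244-46787543 and that of MRPL52 on the plus strand at chr14:22829637-22829936.
SLC3A2 first start: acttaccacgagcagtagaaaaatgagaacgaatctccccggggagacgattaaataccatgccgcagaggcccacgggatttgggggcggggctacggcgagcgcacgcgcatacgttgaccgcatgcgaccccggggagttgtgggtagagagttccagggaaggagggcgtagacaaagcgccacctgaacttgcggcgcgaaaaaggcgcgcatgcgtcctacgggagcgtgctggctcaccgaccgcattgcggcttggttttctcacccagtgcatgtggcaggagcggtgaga
SLC3A2 middle start: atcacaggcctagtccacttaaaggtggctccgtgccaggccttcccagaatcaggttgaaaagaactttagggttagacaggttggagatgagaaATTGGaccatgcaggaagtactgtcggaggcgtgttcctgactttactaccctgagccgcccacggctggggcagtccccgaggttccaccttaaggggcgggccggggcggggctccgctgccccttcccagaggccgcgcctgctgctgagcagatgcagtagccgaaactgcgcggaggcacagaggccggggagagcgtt
SLC3A2 last start: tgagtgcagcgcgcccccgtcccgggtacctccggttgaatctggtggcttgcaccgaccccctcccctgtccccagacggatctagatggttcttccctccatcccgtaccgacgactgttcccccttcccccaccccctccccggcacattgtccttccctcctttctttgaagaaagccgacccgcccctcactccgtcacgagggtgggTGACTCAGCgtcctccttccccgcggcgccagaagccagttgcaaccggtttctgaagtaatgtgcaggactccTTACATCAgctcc
SLC7A6: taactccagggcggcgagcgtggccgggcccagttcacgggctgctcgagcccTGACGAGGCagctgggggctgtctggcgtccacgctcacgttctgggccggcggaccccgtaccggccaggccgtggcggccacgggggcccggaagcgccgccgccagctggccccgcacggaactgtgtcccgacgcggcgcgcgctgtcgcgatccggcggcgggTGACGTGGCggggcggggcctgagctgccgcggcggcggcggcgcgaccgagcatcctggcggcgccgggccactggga
SLC1A5 internal start: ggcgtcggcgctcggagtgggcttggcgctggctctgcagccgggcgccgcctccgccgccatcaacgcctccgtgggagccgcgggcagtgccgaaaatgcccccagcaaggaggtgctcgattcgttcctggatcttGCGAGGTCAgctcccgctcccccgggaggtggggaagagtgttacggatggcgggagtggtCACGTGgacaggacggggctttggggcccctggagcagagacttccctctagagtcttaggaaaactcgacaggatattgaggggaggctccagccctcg
MRPL52: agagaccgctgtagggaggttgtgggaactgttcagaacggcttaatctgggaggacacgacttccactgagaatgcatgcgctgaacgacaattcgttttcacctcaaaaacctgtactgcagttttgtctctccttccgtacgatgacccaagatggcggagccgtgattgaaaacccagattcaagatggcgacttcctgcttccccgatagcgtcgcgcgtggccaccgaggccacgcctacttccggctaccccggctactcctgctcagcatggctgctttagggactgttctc

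The reads of each library at each peak were solved from the values the authors deposited, since no read numbers stand in the table itself. Over all listed peaks they summed to 271694 for Mut4 and 541900 for ZHX2, and the median peak held 22 reads in Mut4 and 45 in ZHX2. Ratios below are Mut4 over ZHX2 after the authors' scaling, in which the ZHX2 library counts as 2.14 times the size of the Mut4 library. They come with exact 95% intervals for counting error only. CPM gives reads per 1000000 of the scaled library size. That scaling centres the listed peaks near a ratio of 1, so a difference shared by most peaks is removed from these ratios.

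All 8 peaks were marked by the authors as unique to ZHX2, as were 95.5% of listed peaks. The mark did not mean that Mut4 had no reads there, since the 8 peaks held between 13 and 42 Mut4 reads and between 23 and 65 ZHX2 reads. Under the authors' scaling 5 peaks were higher in Mut4 and 3 lower, with a median log2 ratio of 0.22, against -0.0046 over all listed peaks. The first SLC3A2 peak alone lay past 2-fold, higher in Mut4, as did 5.33% of listed peaks, and none of the 8 lay past 2-fold in the other direction, where 8.50% of listed peaks did. The same SLC3A2 peak was the only one whose interval lay above 1, as at 11.0% of listed peaks, and none had an interval below 1, as at 11.0% of listed peaks. In the authors' deposited table none of the 8 had an adjusted p under 0.05, which 5.95% of listed peaks had, and the 8 values ran between 0.0872 and 1. The scaling decides most of these directions: with unscaled reads all 8 were lower in Mut4, and each log2 ratio was lower by 1.10. Most listed peaks were lower too, since only 4.06% of them were higher in Mut4 with unscaled reads.

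**Figure D1:**
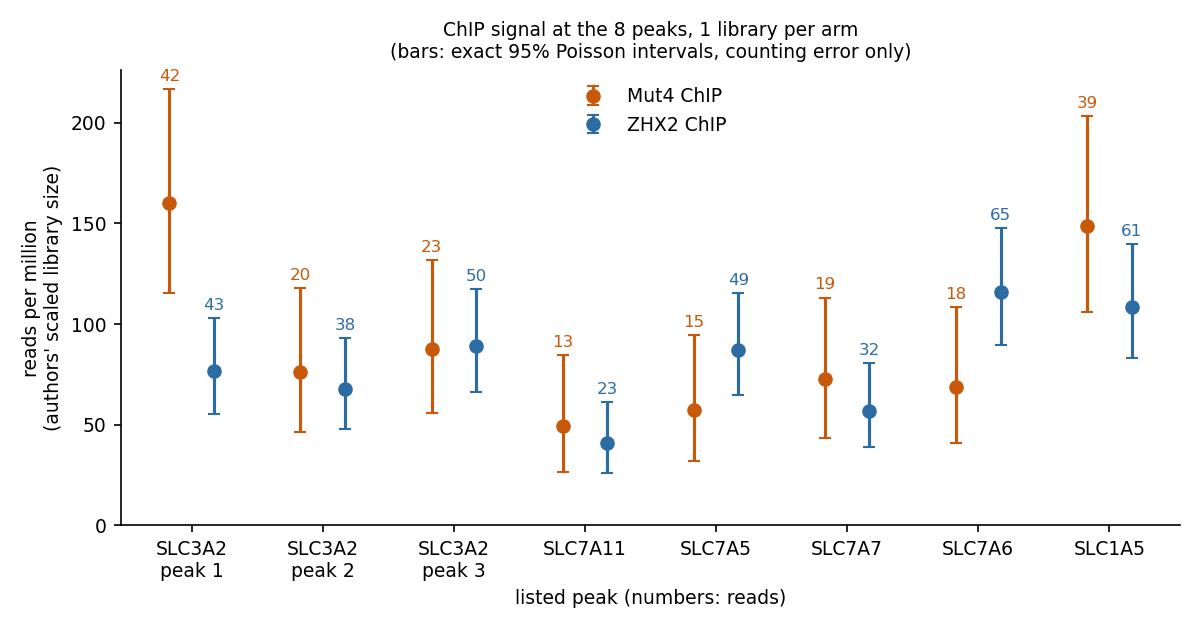
Signal at each of the 8 peaks, in CPM of the authors' scaled library size, for Mut4 (left point) and ZHX2 (right point). Lines are exact 95% Poisson intervals for counting error and the numbers above them are reads; the intervals of both libraries are apart at the first SLC3A2 peak alone.

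The heavy chain gene SLC3A2 (ENSG00000168003, chromosome 11) had 3 peaks along the stretch that holds its alternative starts. The first was 2.09 times as high in Mut4 as in ZHX2 after scaling, and the other two lay near a ratio of 1. Peak 1, at chr11:62856160-62857239, was classed as promoter and began 51 bases past the first RefSeq start, at 62856109. The start of SNHG1, a host gene of small nucleolar RNAs read in the opposite direction, lay 224 bases before that of SLC3A2, and 275 bases from the peak. The authors' detailed annotation of the peak named a promoter of a long noncoding transcript, so its reads cannot be assigned to SLC3A2 alone.

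Peak 1 held 42 reads in Mut4 and 43 in ZHX2, which is 160 CPM in Mut4 (exact Poisson 95% interval 115 to 217) and 76.6 CPM in ZHX2 (55.4 to 103). The Mut4 library was thus the higher one after scaling, by a ratio of 2.09 (1.33 to 3.28), while the unscaled reads were nearly equal. In the authors' deposited table, whose fold runs ZHX2 over Mut4, the log2 fold was -1.06 and the adjusted p was 0.0872. Of all listed peaks 4.53% had a higher ratio of Mut4 to ZHX2. The interval included 1 with unscaled reads (0.623 to 1.53).

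Peak 2, at chr11:62860003-62860620, lay in intron 1 of 9, 3894 bases from the first RefSeq start. It held 20 reads in Mut4 and 38 in ZHX2, or 76.3 and 67.7 CPM, a ratio of 1.13 (0.621 to 1.99). Peak 3, at chr11:62880800-62881527, was classed as promoter, covered the middle RefSeq start at 62880896 and ended 172 bases before the last, at 62881699. It held 23 reads in Mut4 and 50 in ZHX2, or 87.7 and 89.0 CPM, a ratio of 0.985 (0.574 to 1.64). Neither peak differed between the libraries beyond counting error under the authors' scaling.

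A comparison between peaks within the same libraries does not depend on their scaling, and was chosen after the values had been seen. The ratio of Mut4 to ZHX2 reads was 2.11 times as high at SLC3A2 peak 1 as at peak 3 (exact 95% interval 1.05 to 4.30) and 1.85 times as high as at peak 2 (0.885 to 3.93). Over all 28 pairs of the 8 peaks the interval excluded 1 in 4, without adjustment for the number of pairs. No share over pairs of other listed peaks was at hand, so this count is not read as particular to the members. SLC3A2 peak 1 had the highest ratio of the 8 and SLC7A6 the lowest, so the pairs apart hold extremes by rank. In 3 of them the higher peak was SLC3A2 peak 1, against SLC7A6 at 3.50 (1.71 to 7.36), against SLC7A5 at 3.17 (1.48 to 7.05) and against SLC3A2 peak 3. In the other, SLC1A5 stood above SLC7A6, at 2.30 (1.14 to 4.75).

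**Figure D2:**
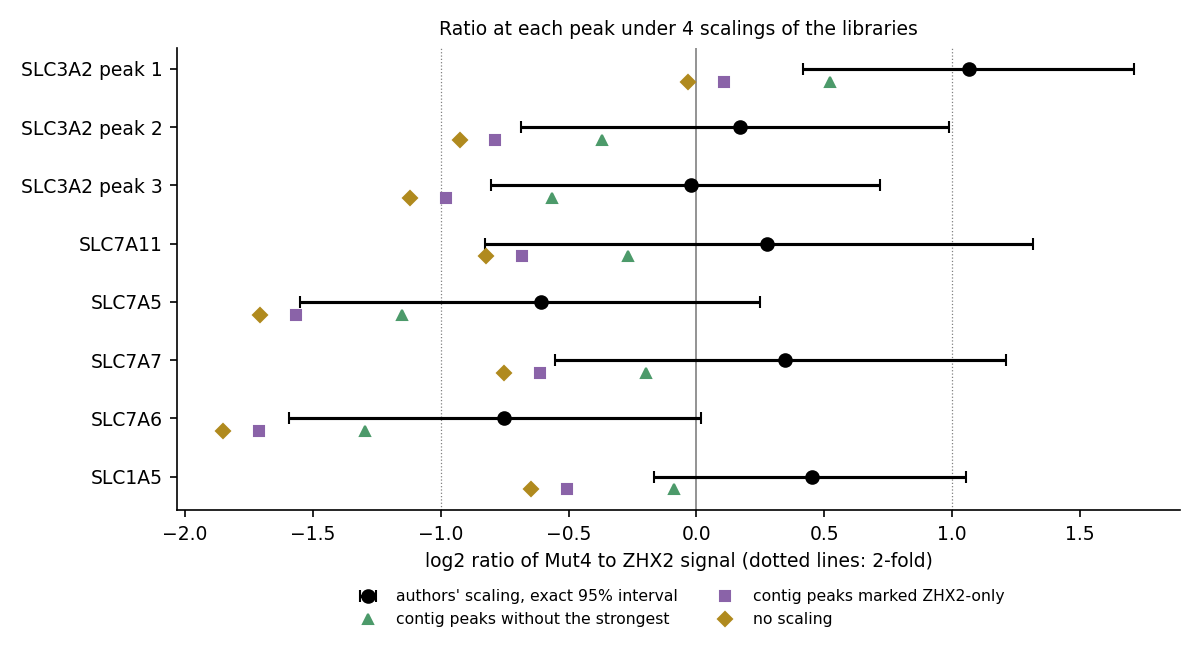
Log2 ratio of Mut4 to ZHX2 signal at each peak under the authors' scaling (black, with exact 95% intervals) and under 3 other scalings of the libraries (coloured marks). The coloured marks move all peaks by the same amount, so the order of the peaks stays, with SLC3A2 peak 1 highest and SLC7A6 lowest.

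The 5 listed peaks of other genes within 100 kb of SLC3A2 had ratios between those of its first peak and 1. Within 50 kb lay the promoter peaks of WDR74, a ribosome assembly factor, and NXF1, the mRNA export receptor. The WDR74 peak held 87 reads in Mut4 and 167 in ZHX2, a ratio of 1.12 (0.851 to 1.45). The NXF1 peak held 34 and 47 reads, a ratio of 1.55 (0.966 to 2.46). Farther out TMEM223, TMEM179B and TAF6L added ratios of 1.37 (0.796 to 2.33), 1.29 (0.807 to 2.04) and 1.38 (0.851 to 2.22). None of these 5 intervals lay above 1. Without scaling all 5 log2 ratios were below 0, and 4.06% of all listed peaks were higher in Mut4. A ratio as high as that of SLC3A2 peak 1 stood elsewhere among the neighbours, at the promoter peak of BANP, 95775 bases from the SLC7A5 peak, with 53 reads in Mut4 and 54 in ZHX2 and a ratio of 2.10 (1.41 to 3.13); BANP is named because of that value.

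**Figure D3:**
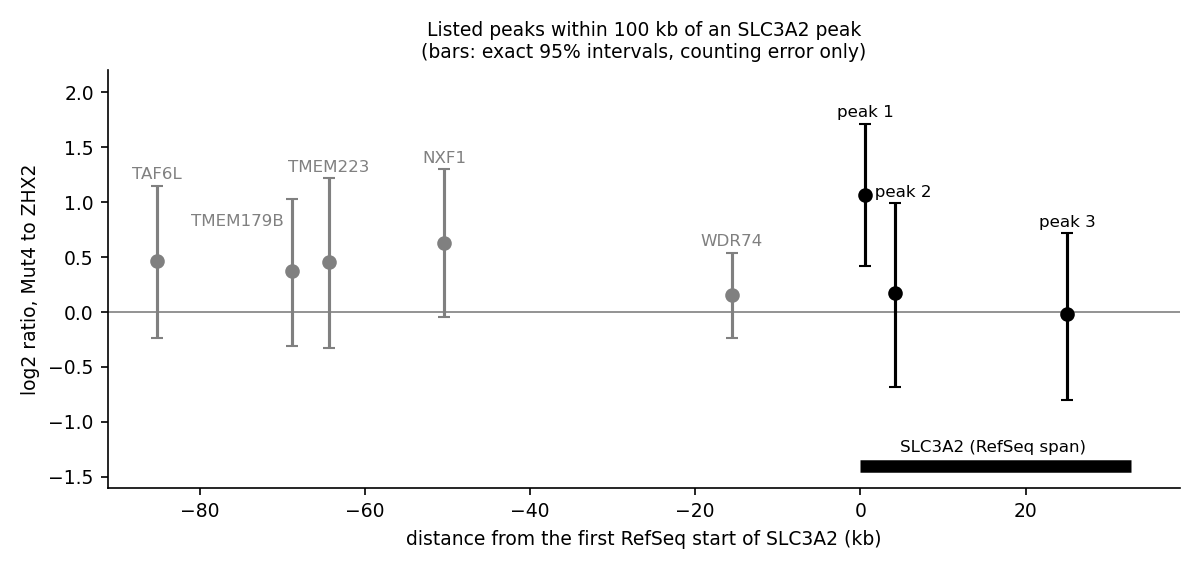
Log2 ratio of Mut4 to ZHX2 signal at listed peaks around SLC3A2 (black: its own peaks, grey: peaks of other genes), by distance in kb from its first RefSeq start, with exact 95% intervals for counting error. Peak 1 has the highest ratio, 2.09, and peak 3, over the middle start, lies at 0.985.

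SLC7A11 (ENSG00000151012), the cystine and glutamate exchanger, had the weakest of the 8 peaks. It lay at chr4:138241809-138242448 in exon 1 of 12, at a distance of 221 bases from the transcription start by the authors' annotation. The peak held 13 reads in Mut4 and 23 in ZHX2, or 49.6 and 41.0 CPM, a ratio of 1.21 (0.563 to 2.49). Of all listed peaks 13.3% had a lower mean signal. The next listed peak of another gene lay 773 kb from SLC7A11, at NOCT. At this depth a difference within that interval was not detectable.

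Of the carriers of large neutral amino acids, SLC7A5 had a peak and SLC7A8 (LAT2), which serves mainly transporting epithelia, had none. The SLC7A5 peak (ENSG00000103257), at chr16:87853815-87854669, lay in intron 1 of 9 and not at the promoter. Its nearer edge was 14838 bases from the RefSeq start of the gene. The authors' annotation gave a distance of 9397 to the start it used. The peak was 854 bases long, so from any point of it that start was not the RefSeq start above. The SLC7A5 peak held 15 reads in Mut4 and 49 in ZHX2, or 57.2 and 87.3 CPM, a ratio of 0.656 (0.341 to 1.19). A further listed peak over the last exon of SLC7A5, at chr16:87829935-87831616, was given to MIR6775 by the authors and is no member by the rule. It held 24 reads in Mut4 and 52 in ZHX2, a ratio of 0.988 (0.583 to 1.63). No listed peak overlapped the RefSeq span of SLC7A8, and the nearest, of CDH24, lay 65.5 kb away.

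The y+L carriers, which exchange cationic for neutral amino acids, were SLC7A7 and SLC7A6. The peak given to SLC7A7 (ENSG00000155465), at chr14:22829435-22830159, held 19 reads in Mut4 and 32 in ZHX2, or 72.5 and 57.0 CPM, a ratio of 1.27 (0.681 to 2.31). It lay 9644 bases outside the RefSeq span of SLC7A7 and covered the start of MRPL52, at 22829887, whose promoter is printed above. The authors' annotation placed it 23 bases from the start of an SLC7A7 transcript outside the RefSeq span. No listed peak overlapped any of the 3 RefSeq starts of SLC7A7, so its values may belong to either gene.

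SLC7A6 (ENSG00000103064) had the lowest ratio of the 8. Its promoter peak at chr16:68264062-68265160 covered the RefSeq start at 68264526, and that of LOC124903704, read the other way and 69 bases off. It held 18 reads in Mut4 and 65 in ZHX2, or 68.6 and 116 CPM, a ratio of 0.593 (0.331 to 1.01). The Mut4 library was thus the lower one, by a margin at the edge of counting error. Of all listed peaks 13.7% had a lower ratio. The nearest listed peak of another gene, the promoter of the splicing regulator ESRP2, held 37 reads in Mut4 and 105 in ZHX2, a ratio of 0.755 (0.504 to 1.11).

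SLC7A10, a carrier of small neutral amino acids and D-serine known from brain and fat, had no listed peak. The nearest to its span, 75.6 kb away, was that of CEBPA-DT. SLC1A5 (ENSG00000105281) had the strongest mean signal of the 8, at a promoter-class peak at chr19:46786405-46787919 over an internal RefSeq start at 46787293. The outermost start of the gene, at 46788594, lay 675 bases beyond the peak. The SLC1A5 peak held 39 reads in Mut4 and 61 in ZHX2, or 149 and 109 CPM, a ratio of 1.37 (0.892 to 2.08). Of the 9 listed peaks of other genes within 50 kb of a member peak, 4 were higher and 5 lower in Mut4.

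The 8 peaks were shorter than listed peaks in general, with a median length of 790.5 against 950 bases, and 62.5% of them were of the promoter class, against 56.6%. Per kb of peak their median signal was 99.2 CPM in Mut4 and 90.5 in ZHX2, against 81.1 in Mut4 and 79.0 in ZHX2 over all listed peaks. Over the listed peaks of the promoter class alone it was 88.3 in Mut4 and 85.7 in ZHX2. The order of the 8 peaks per kb was not the same in both libraries. In Mut4 the 3 SLC3A2 peaks came first, at 148, 124 and 121 CPM per kb in order of position, and SLC7A6 last at 62.5. In ZHX2, SLC3A2 peak 3 came first at 122 CPM per kb, SLC7A6 stood at 105, SLC3A2 peak 1 stood next to last at 71.0 and SLC7A11 was last at 64.1. Neighbours in either order did not differ beyond counting error, with 0 of 7 pairs apart in each library. The first was 2.37 times the last in Mut4 and 1.91 times in ZHX2, given with no test since these peaks were picked by their rank.

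The directions were then set against other scalings, since the ZHX2 library held more reads in listed peaks. With unscaled reads the interval lay below 1 at 5 of the 8 peaks (SLC3A2 peaks 2 and 3, SLC7A5, SLC7A6 and SLC1A5), where 71.1% of all listed peaks did so. Scaled to the 51 peaks on unplaced contigs marked as unique to ZHX2, it was 3 of 8 (SLC3A2 peak 3, SLC7A5 and SLC7A6), against 62.7% of listed peaks. Without the strongest contig peak it was 2 of 8 (SLC7A5 and SLC7A6), against 35.2%. In none of these did the interval of SLC3A2 peak 1 exclude 1, and in none were the 8 peaks as a set more often below 1 than listed peaks in general. Depth outside the listed peaks is unknown, so a loss of binding shared by most peaks and a shallower Mut4 library cannot be told apart.

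Other amino acid transporters gave the frame. Of 41 such genes without the 8 members, 10 had a listed peak and 11 peaks in all, each marked as unique to ZHX2, 5 higher in Mut4 and 6 lower, with a median log2 ratio of -0.24. None lay past 2-fold in either direction and none had an interval apart from 1. At or above the median signal lay 6 of the 11 peaks. The higher ratios of these 6 were at SLC38A6, at the promoter peak of the neutral amino acid carrier SLC43A2 and at the glutamine transporter SLC38A2. SLC38A6 held 29 reads in Mut4 and 39 in ZHX2, a ratio of 1.59 (0.950 to 2.64). The SLC43A2 promoter peak held 42 and 77 reads, a ratio of 1.17 (0.782 to 1.72). SLC38A2 held 26 and 50 reads, a ratio of 1.11 (0.665 to 1.82). SLC43A2 also had a weaker intron peak, with 11 reads in Mut4 and 29 in ZHX2 and a ratio of 0.812 (0.366 to 1.67). The lower ratios of the 6 were at SLC1A4 (ASCT1, the close relative of SLC1A5), at SLC36A4 and at the glutamine transporter SLC38A1. SLC1A4 held 19 reads in Mut4 and 61 in ZHX2, a ratio of 0.667 (0.376 to 1.13). SLC36A4 held 20 and 57 reads, a ratio of 0.751 (0.428 to 1.27). SLC38A1 held 48 and 125 reads, a ratio of 0.822 (0.577 to 1.16). Weaker peaks of the 11 had ratios between these, so this order holds for the 6 alone. SLC3A1, the other heavy chain, had no listed peak.

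Downstream of imported cystine, 3 of 15 genes from cystine to glutathione had a listed peak, each at a promoter. GCLM, the modifier subunit of the enzyme that starts glutathione synthesis, held 18 reads in Mut4 and 38 in ZHX2, a ratio of 1.01 (0.545 to 1.82). GSS, glutathione synthetase, held 24 and 44 reads, a ratio of 1.17 (0.679 to 1.96). GPX4, which uses glutathione to reduce lipid peroxides, held 46 and 96 reads, a ratio of 1.03 (0.706 to 1.47). All 3 ratios were close to 1 under the authors' scaling, and none was past counting error.

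**Figure D4:**
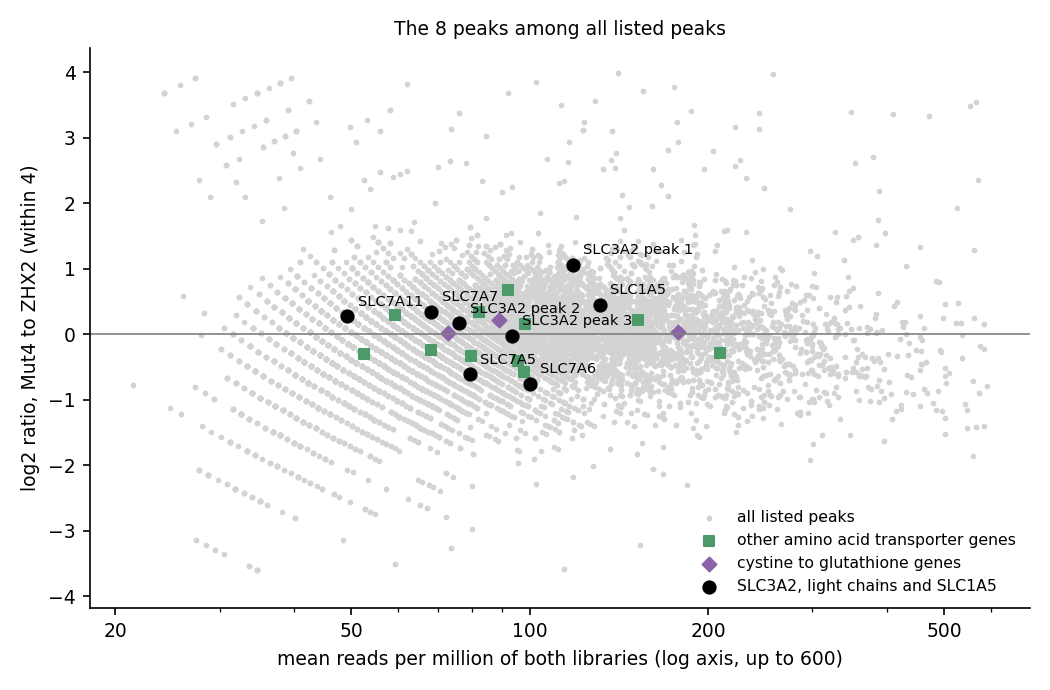
Log2 ratio of Mut4 to ZHX2 signal against the mean signal (CPM, log axis) for the listed peaks (grey), the 8 peaks (black), other amino acid transporters (green) and genes from cystine to glutathione (purple). The 8 peaks lie inside the cloud of listed peaks, with SLC3A2 peak 1 in its upper part, below the 4.53% of listed peaks with a higher ratio. Beyond the axes lie 110 listed peaks.

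The promoter sequences were searched for the 4 motifs named above, on both strands, as a description of letters and not of binding. The table held 16 promoters of 7 of the 8 genes, of which 1 pair overlaps; none of SLC7A11 was used here. Of these 4 overlapped a listed peak, as did 21.1% of the 35116 promoters of the table. These 4 held 17, 20, 48 and 26 CG pairs (SLC3A2 middle and last start, SLC7A6 and SLC1A5), with SLC3A2 peak 3 over both of its promoters, while the median was 30 over promoters that overlap a listed peak and 8 over the others. The SLC7A8 promoters held at most 16 and SLC7A10 held 18, while the SLC7A5 promoter, without a listed peak, held 44.

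TGACNNNGC was found in 5 of the 16 member promoters, 1 each of SLC3A2 (last start), SLC7A5, SLC7A7, SLC7A6 and SLC1A5, and in 13.3% of all promoters. At the last SLC3A2 start the match TGACTCAGC began 37 bases before the start, and TGATGNAA matched the other strand 37 bases after it. Both matches, and that to CCAAT at the middle start, lay outside the edges of peak 3, while the SLC7A6 matches to TGACNNNGC lay under its peak. TGATGNAA was in 2 of the 16, the other at the innermost SLC1A5 start, and in 3.62% of all promoters. CACGTG was in 4 of the 16, 1 each of SLC7A5, SLC7A8, SLC7A7 and SLC1A5, and in 7.26% of all promoters. In SLC1A5 it lay under the listed peak, 50 bases before the internal start. CCAAT was in 4 of the 16, of SLC3A2 (middle start), SLC7A8 (which had a pair of them) and SLC1A5, and in 34.6% of all promoters. None of the 4 motifs was found at the first SLC3A2 start, next to peak 1, or in the MRPL52 promoter.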

How the data were processed

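The analysis used 1 deposited table, in which the authors compared the ChIP libraries of DB cells labelled Mut4 and ZHX2 over 8871 peaks. Its columns, per the file headers, are a log2 fold change, log2 CPM, p-value and adjusted p-value of each peak, its length, position, class, gene and distance to a transcription start. The fold runs ZHX2 over Mut4, since all peaks marked as unique to Mut4 have a negative value. Per the submitters' processing notes the build was hg38 and the tools included BWA 0.7.17, Picard 2.22.2-0, MACS2 2.2.6 and HOMER; their roles, and the tool behind the comparison, were not given in the sources used here. Positions are printed as deposited (whether starts count from 0 or 1 is not stated). No sample column was set aside (0). Input libraries were not used here.

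Each deposited log2 fold and log2 CPM was solved for whole reads in Mut4 and ZHX2. The fold held a prior of 0.25 reads, divided between both libraries, and the CPM a mean prior of 2 reads with dispersion 0.05. Whole reads gave back both values within 1e-09 at 8871 of 8871 peaks (100%); the solver was tested on simulated data. The scaled sizes were the recovered totals times 0.965 (Mut4) and 1.04 (ZHX2). Ratios carry exact Clopper-Pearson 95% intervals of the Mut4 share of reads, pairs of peaks exact conditional intervals. PCR copies cannot be told from separate fragments, and the intervals hold counting error alone. No p-value was computed, with 1 library per arm. Past 2-fold means a ratio of at least 2 or its inverse.

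Members, gene lists and motifs were chosen with earlier results of these data known. Named genes were the members, peaks within 50 kb of a member peak, small list counts, and some transporter peaks. These were the 3 highest and 3 lowest at or above the median signal, which came to all 6 at that signal. Peaks within 100 kb of SLC3A2 were named as an alternative distance. Values of some neighbouring peaks are not reported here. RefSeq starts are on GRCh38.p14, which shares its chromosome coordinates with hg38. Python 3.11.15, SciPy 1.17.1 and pandas 2.3.3 were used.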

Additional observations from a re-analysis of the deposited data

How the results depend on the processing

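Centring on the median of all listed peaks, or adding 0.5 reads to each library, moved no member's ratio beyond its counting interval. Without scaling, the log2 ratio of SLC3A2 peak 1 turned to -0.034, and those of SLC3A2 peaks 2 and 3, SLC7A5, SLC7A7, SLC7A6 and SLC1A5 moved to -0.93, -1.12, -1.71, -0.75, -1.85 and -0.65. Scaled to the contig peaks marked as unique to ZHX2 the same 7 peaks lay at 0.11, -0.79, -0.98, -1.57, -0.61, -1.71 and -0.51. SLC7A11, at -0.82 and -0.68, stayed within its wide counting interval. Peaks at least 2-fold higher in Mut4 numbered 0, in place of 1, without scaling, scaled to the contig peaks and without the strongest of these. Member peaks at least 2-fold lower in Mut4 numbered 3 without scaling and 2 with either contig scaling, in place of 0. At least 1.5-fold lower under the authors' scaling were 2. The shares of all listed peaks past these folds under these settings are not given here, so these counts of higher and lower peaks are not read as a trait of the members. With the peak nearest a start per gene, or peaks at or above the median signal, the transporters' median log2 ratio was -0.044 or -0.064, and that of the glutathione genes 0.037 or 0.13. Neighbouring peaks numbered 1 within 20 kb, 9 within 50 kb and 20 within 100 kb. On the strand of the gene alone CCAAT was found in 2 member promoters in place of 4, and in 19.6% of all promoters in place of 34.6%. TGATGNAA was found in 1 member promoter in place of 2, and in 1.87% of all promoters in place of 3.62%. For TGACNNNGC it was 4 in place of 5, and 6.90% in place of 13.3%. CACGTG, which reads the same on both strands, stayed at 4. The shifts with scaling are the same for every peak by construction, and what sets the libraries apart in size was not tested. The contig scaling without its strongest peak and the comparison of pairs were added after the data had been seen. No paired analysis was possible because each arm had 1 ChIP library, and for the same reason none could be left out. With 13 to 42 Mut4 reads per peak, differences inside the intervals were not detectable at this depth.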
